A study of Mus musculus with 40 samples.

Results

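Chemokine receptors are the surface proteins by which T cells follow chemokines from one tissue to another, and 9 of them that distinguish T helper cell types were examined in RNA and chromatin of mouse CD4 T cells. They are Ccr3, Ccr4, Ccr6, Ccr7, Ccr8, Cxcr3, Cxcr4, Cxcr5 and Cxcr6, taken by gene name from a table of 39179 genes, together with all peaks within 50 kb of each gene in 13 peak lists. All 9 were in the table, 8 of them were high enough to be tested, and Ccr6 was not. The cells came from spleens of C57BL/6 mice, either wild type (WT, Setdb1+/+) or labelled Setdb1-/- (KO-labelled below), and Suv39h1-/- cells were profiled for H3K9me3 alone; the sources used here do not state whether the deletion was made in all cells or in T cells only. SETDB1 and SUV39H1 are enzymes that add 3 methyl groups to lysine 9 on histone H3; the product, H3K9me3, marks silent chromatin.

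RNA was sequenced from 18 libraries in 6 groups. Naive cells, which have not met antigen, gave 4 WT and 3 KO-labelled libraries at day 0. T helper 2 (Th2) cells gave 3 WT and 3 KO-labelled libraries after 6 days of culture. They had been stimulated with anti-CD3 (10 ug/mL) and anti-CD28 (1 ug/mL) together with anti-IFN-gamma (10 ug/mL) and IL-4 (50 ng/mL), and were replated on day 3 with IL-2 (30 IU/mL) and without the stimulating antibodies. The last 2 groups, called Th2-Th1 here, were Th2 cells washed on day 6 and kept for 2 more days with IL-12 (10 ng/mL) and anti-IL-4 (10 ug/mL), the conditions that favour T helper 1 (Th1) cells; they gave 2 WT and 3 KO-labelled libraries. No sample held Th2 cells kept for those 2 days without IL-12 and anti-IL-4. A change on the move to Th1 conditions therefore cannot be told apart from an effect of time or of washing. Nothing in the labels says whether libraries of a group came from separate mice or cultures, so the p-values measure the spread between these libraries, which may be technical.

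Each T helper type is known for its own set of these receptors. CCR3, CCR4 and CCR8 are associated with Th2 cells, CXCR3 and CXCR6 with Th1 cells, CCR6 with T helper 17 (Th17) cells and CXCR5 with follicular helper cells that enter B cell areas. CCR7 brings naive and central memory cells into lymph nodes and is lost as cells become effectors, and CXCR4, the receptor for CXCL12, is carried by naive cells and by many activated cells. All 9 are coupled to inhibitory G proteins.

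Before the receptors, the label itself was checked. Setdb1, the gene named as deleted, fell in naive KO-labelled libraries (933 to 1103 normalised counts against 1214 to 1366 in WT) but stood at 8069.7 to 9044 in KO-labelled against 694 to 933 in WT Th2 libraries, and at 5429.8 to 7389 against 1594 to 1611 in Th2-Th1 libraries, so the RNA level goes against the label in both cultured conditions. Which part of the transcript these reads came from was not examined, and every direction between genotypes given here rests on the labels. Total reads per library were 10.019 to 18.511 M in naive cells and 10.141 to 19.841 M in cultured WT cells, but 36.261 to 44.719 M in cultured KO-labelled cells, so a receptor with few transcripts was seen with more reads in the latter. The 6 T cell markers were present in every group, while eosinophil markers (3 genes) had no read in either Th2 group. Of Th2 markers, Gata3, Il4, Il5 and Il13 summed to 8986 to 9313 in Th2 WT and 357949 to 408255 in Th2-Th1 WT libraries. In KO-labelled libraries this sum was 3757 to 5325 in Th2 and 30442 to 69225 in Th2-Th1 cells. The Th1 markers Tbx21 and Ifng summed to 6.05 to 9.98 and 182 to 270 in WT libraries. In KO-labelled ones they summed to 67.9 to 132 and 8193 to 17841. Both sums thus rose in Th1 conditions. In bulk RNA, fewer cells carrying a receptor and less receptor RNA per cell cannot be told apart.

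The promoters are shown for the 5 receptors whose RNA and chromatin the results turn on. Each is the 250 bases before a start given by RefSeq, 5′ to 3′ on the gene's own strand, from RefSeq on GRCm38.p6 (mm10), and capitals mark CG pairs and matches to the GATA letters on either strand, that is, GATA with A or T before it and A or G after it. For Cxcr4, Ccr8 and Cxcr6 this start is the edge of the gene span given below, while for Ccr4 and Ccr3 it lies inside the span.
Cxcr4 (chr1:128592300-128592549, minus strand): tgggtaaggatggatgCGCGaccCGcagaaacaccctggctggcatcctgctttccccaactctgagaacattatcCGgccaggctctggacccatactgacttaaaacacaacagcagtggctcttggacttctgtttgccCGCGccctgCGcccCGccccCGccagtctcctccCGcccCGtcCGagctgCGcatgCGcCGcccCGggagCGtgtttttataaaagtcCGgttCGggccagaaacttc
Ccr4 (chr9:114496545-114496794, minus strand): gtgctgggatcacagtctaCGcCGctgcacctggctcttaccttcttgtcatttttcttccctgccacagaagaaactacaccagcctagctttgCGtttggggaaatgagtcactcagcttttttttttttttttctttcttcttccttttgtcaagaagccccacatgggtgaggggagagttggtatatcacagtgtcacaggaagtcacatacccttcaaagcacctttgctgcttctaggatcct
Ccr8 (chr9:120091883-120092132, plus strand): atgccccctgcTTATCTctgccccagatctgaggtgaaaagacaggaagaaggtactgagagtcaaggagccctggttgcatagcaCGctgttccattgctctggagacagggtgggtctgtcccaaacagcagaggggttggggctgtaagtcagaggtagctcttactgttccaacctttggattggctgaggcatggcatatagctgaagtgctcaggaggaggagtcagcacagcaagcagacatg
Cxcr6 (chr9:123806227-123806476, plus strand): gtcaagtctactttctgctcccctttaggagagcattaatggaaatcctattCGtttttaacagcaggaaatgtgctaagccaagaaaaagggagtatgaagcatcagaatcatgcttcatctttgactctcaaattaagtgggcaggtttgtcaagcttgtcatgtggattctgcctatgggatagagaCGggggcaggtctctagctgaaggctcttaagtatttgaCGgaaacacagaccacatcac
Ccr3 (chr9:124021721-124021970, plus strand): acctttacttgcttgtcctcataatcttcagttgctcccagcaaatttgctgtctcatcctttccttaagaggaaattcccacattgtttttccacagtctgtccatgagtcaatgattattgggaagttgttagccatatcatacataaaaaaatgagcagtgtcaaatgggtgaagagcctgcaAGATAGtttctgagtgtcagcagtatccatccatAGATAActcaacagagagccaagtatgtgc
The Cxcr4 stretch holds 19 CG pairs, against a median of 6 over all 32851 windows in the table, while the other 4 hold 0 to 3. The Ccr3 stretch holds 2 matches to the GATA letters, 64 and 30 bases before the start, and the Ccr8 stretch holds 1, 239 bases before it.

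The values below are normalised counts, that is, the reads of a gene after division by the library's size factor, and differences are on the scale of log2(value + 1) with their standard error (SE) and a p from limma adjusted over 17254 genes, called at 0.05.

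**Figure D1:**
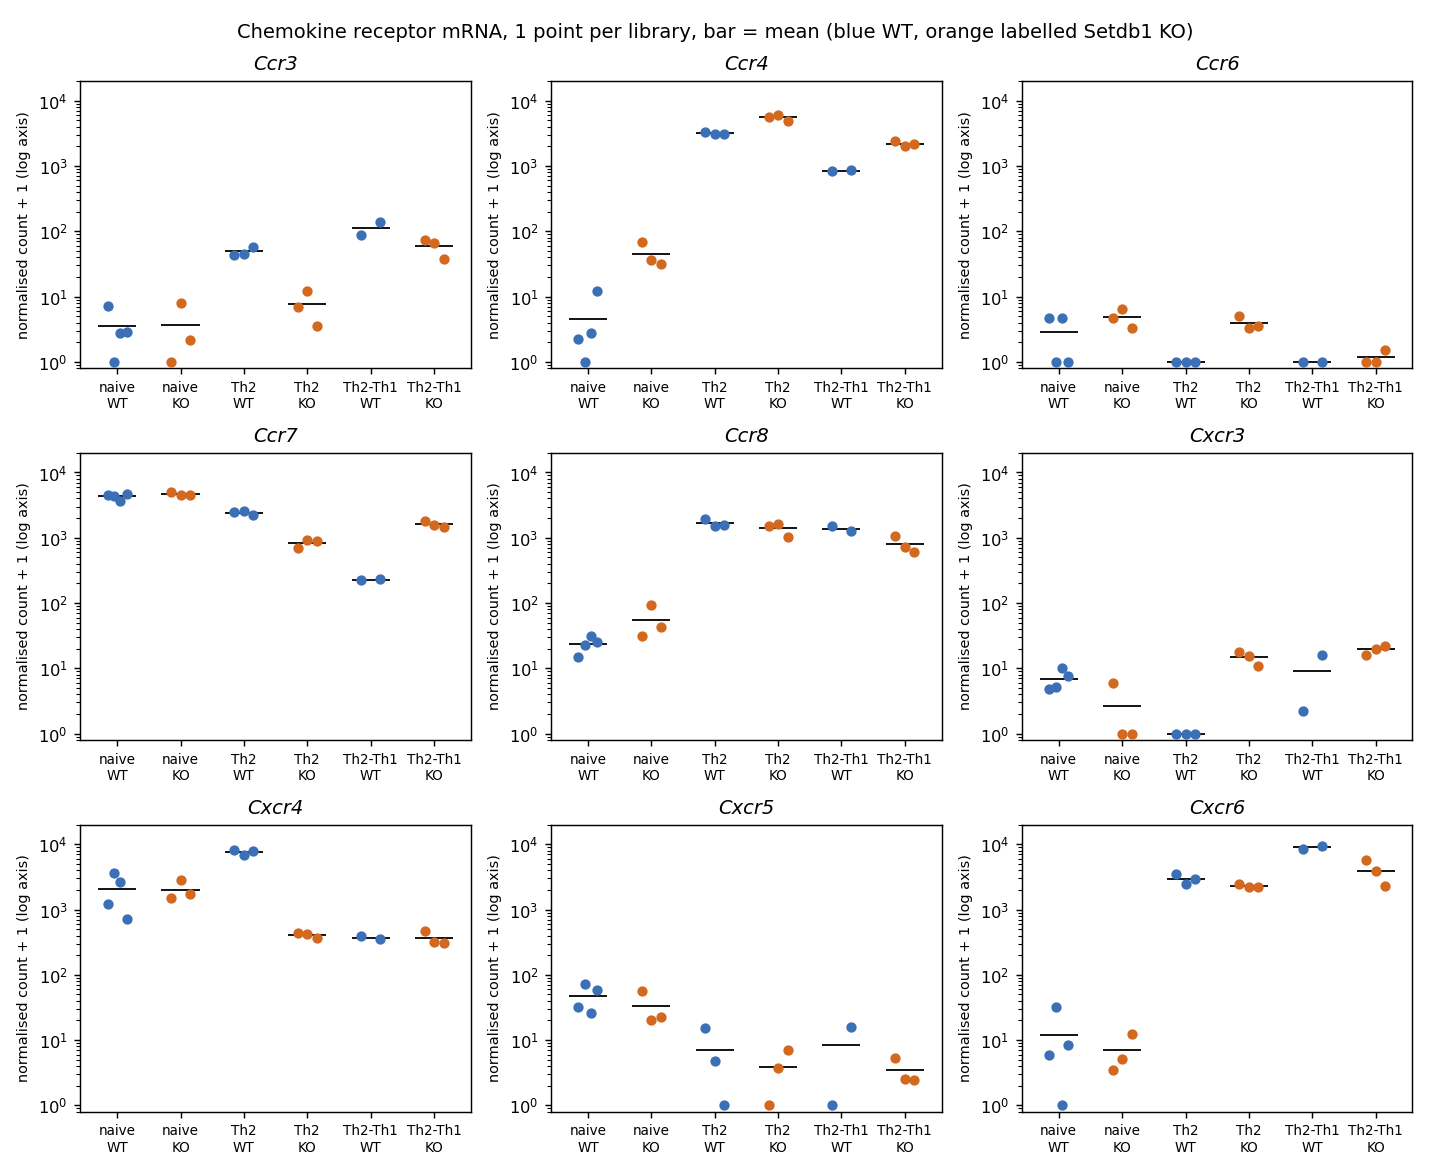
Normalised counts (plus 1, log axis) of the 9 receptors in the 18 RNA libraries, 1 point per library with the group mean as a bar, WT in blue and KO-labelled in orange. Ccr4, Ccr8 and Cxcr6 are low in all naive libraries and above 600 in all cultured ones, Ccr7 and Cxcr4 fall into levels that do not follow a single order in WT and KO-labelled cells, and Ccr6 is near 0 throughout.

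Th2 culture changed the receptors broadly. In WT cells all 8 tested receptors passed the test, 5 higher and 3 lower, where 65.9% of all tested genes passed in either direction (32.8% higher and 33.1% lower), and the median difference of the 8 was 3.14, beside -0.14 over all genes. In KO-labelled cells 7 of 8 passed, 4 higher and 3 lower, where 53.5% of all genes passed (28.3% higher and 25.2% lower), with a median of 2.19 beside -0.03. The sets differed in direction for Cxcr4 and Cxcr3, and the plot of culture changes shows both steps side by side.

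**Figure D2:**
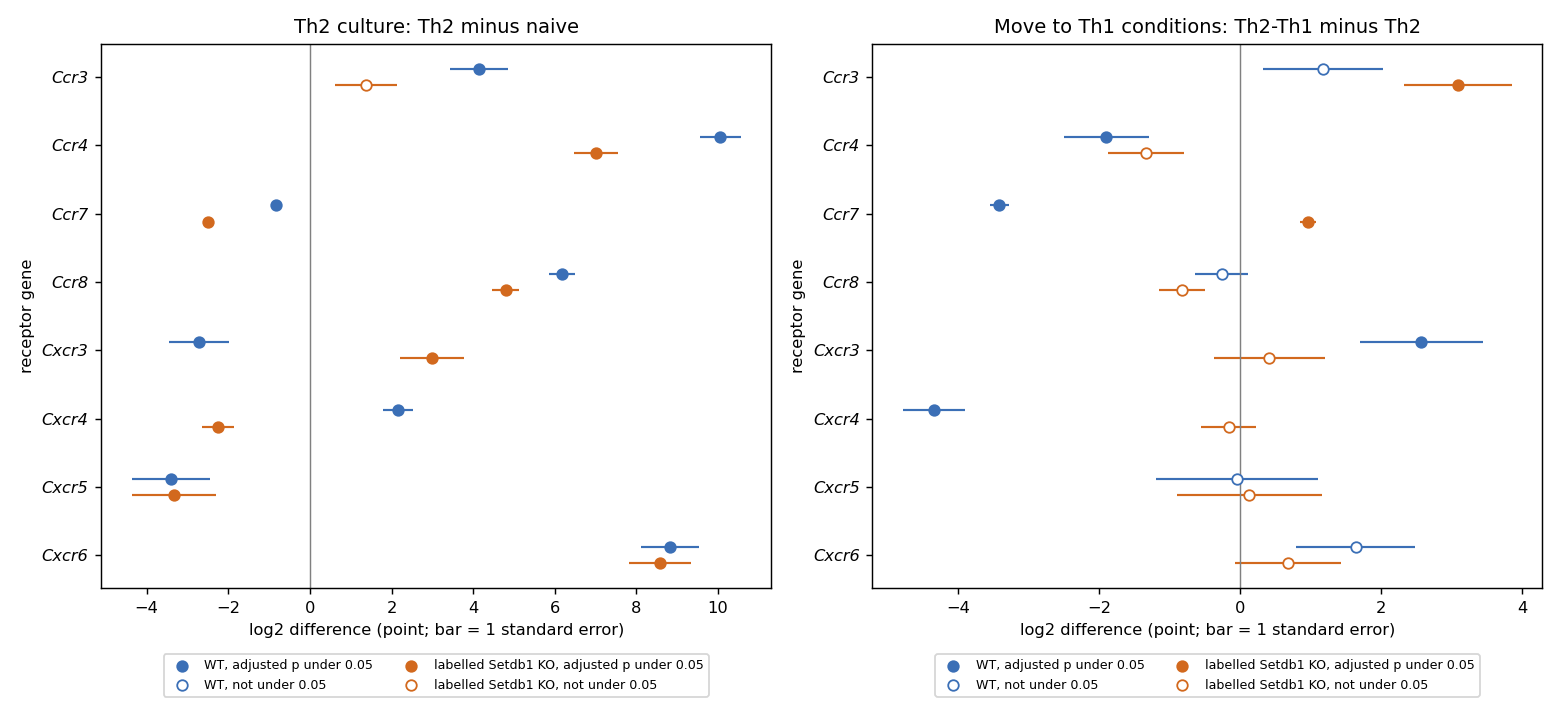
Log2 differences with 1 standard error for Th2 culture (left, Th2 minus naive) and for the move to Th1 conditions (right, Th2-Th1 minus Th2), WT in blue and KO-labelled in orange, filled where the adjusted p was under 0.05. Cxcr4 rises by 2.15 in WT and falls by 2.25 in KO-labelled cells on the left, and Ccr7 falls by 3.42 in WT and rises by 0.96 in KO-labelled cells on the right.

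CCR4, the receptor for CCL17 and CCL22 and a common Th2 marker, is encoded at chr9:114490316-114505476. Its normalised counts in naive WT libraries were 1.25, 0, 1.81 and 11.3, resting on 14 reads in all, and in naive KO-labelled libraries 68.1, 34.7 and 31.0. In Th2 WT libraries they were 3319, 3097 and 3078, and in Th2 KO-labelled libraries 5687, 6129 and 4831. In Th2-Th1 libraries they were 832 and 862 in WT and 2421, 1995 and 2140.3 in KO-labelled cells. No 2 neighbouring groups overlapped, in the order Th2 KO-labelled, Th2 WT, Th2-Th1 KO-labelled, Th2-Th1 WT, naive KO-labelled and naive WT, so at each stage the KO-labelled libraries lay above WT.

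The genotype difference of Ccr4 passed the test in naive cells, at 3.85 (SE 0.50, adjusted p = 3.15e-05). The naive WT mean of 3.60 lay under the 4.03 that 3 reads per library would give, and 12 of its 14 reads came from the fourth library; without that library the difference was 4.54 (SE 0.30, adjusted p = 1.08e-08). It did not pass in Th2 cells (0.80, SE 0.53, adjusted p = 0.221) or Th2-Th1 cells (1.36, SE 0.60, adjusted p = 0.0882), although the libraries did not overlap in either. Those calls changed with the fit: 6 of 27 alternatives called Ccr4 higher in Th2 and 7 in Th2-Th1 KO-labelled cells, edgeR and DESeq2 on the reads among them, whereas the naive call was lost when only the naive groups were fitted (adjusted p = 0.0736). The spread of a gene was estimated over all 18 libraries, so naive WT libraries with 0 to 12 reads of Ccr4 entered these SEs. With only the compared groups in the fit, the limma adjusted p was 0.00129 in Th2 and 0.00466 in Th2-Th1 cells. Foxp3, which marks regulatory T cells that also carry CCR4 and CCR8, stood at 157 to 195 in naive KO-labelled and 21.9 to 67.0 in naive WT libraries (2.31, SE 0.75, adjusted p = 0.055); its part in the naive Ccr4 and Ccr8 values was not tested.

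Th2 culture raised Ccr4 by 10.06 (SE 0.50, adjusted p = 1.01e-12) in WT and by 7.01 (SE 0.53, adjusted p = 1.38e-09) in KO-labelled cells. The rise was smaller in KO-labelled cells by 3.05 (SE 0.73, adjusted p = 0.00237 for the interaction). The WT rise and the interaction start from a naive WT mean under the level of 3 reads per library. Over the 27 alternatives the WT rise ranged from 8.69 to 10.74 and the interaction from -3.73 to -1.81. Both were called under every alternative, but the fitted sizes are not bounds. In Th1 conditions Ccr4 fell by 1.90 in WT (SE 0.60, adjusted p = 0.0124), from a mean of 3165 to 847; this call was lost without either Th2-Th1 WT library (adjusted p up to 0.065). In KO-labelled cells the difference was -1.34 (SE 0.53, adjusted p = 0.0728) and passed under 7 alternatives.

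CCR8, the receptor for CCL1 and a second Th2-associated receptor (chr9:120092133-120094906), was also high in all cultured libraries. Naive WT libraries had 13.7, 21.9, 30.8 and 24.6 normalised counts, and naive KO-labelled libraries 29.7, 93.0 and 41.3. Th2 libraries had 1909, 1490.0 and 1594 in WT and 1538, 1625 and 1041 in KO-labelled cells. Th2-Th1 libraries had 1512 and 1250.0 in WT and 1067, 717 and 606 in KO-labelled cells. The 3 highest groups, Th2 WT, Th2 KO-labelled and Th2-Th1 WT, overlapped in that order, and the naive groups overlapped each other.

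Ccr8 rose in Th2 culture by 6.18 (SE 0.31, adjusted p = 1.24e-12) in WT and by 4.79 (SE 0.33, adjusted p = 3.53e-10) in KO-labelled cells. Its naive level was higher in KO-labelled cells by 1.12 (SE 0.31, adjusted p = 0.0249), with overlapping libraries, and the interaction was -1.38 (SE 0.46, adjusted p = 0.02). The naive call was lost under 5 alternatives and the interaction under 4. Without the second naive KO-labelled library, which held 93.0, the naive difference was 0.66 (adjusted p = 0.209).

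CCR3, the eotaxin receptor of eosinophils and of a subset of Th2 cells (chr9:124017825-124031692), was the Th2-associated receptor that was lower in KO-labelled Th2 cells. Th2 WT libraries had 42.3, 44.5 and 57.4 normalised counts, and KO-labelled ones 5.96, 11.2 and 2.50, a ratio of means of 7.34. The groups did not overlap, and the difference was -2.87 (SE 0.76, adjusted p = 0.00354). Naive libraries held at most 6.94 in either genotype. In Th2-Th1 cells WT libraries had 86.2 and 137 and KO-labelled ones 72.9, 65.1 and 36.5, and that difference passed under no setting.

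Ccr3 rose in Th2 culture in WT (4.14, SE 0.71, adjusted p = 3.99e-05), and in KO-labelled cells the difference of 1.37 (SE 0.76) did not pass (adjusted p = 0.14). The interaction was called at -2.76 (SE 1.04, adjusted p = 0.0407) but was lost under 14 of 27 alternatives. In Th1 conditions Ccr3 rose in KO-labelled cells by 3.09 (SE 0.76, adjusted p = 0.00449), from a mean of 6.55 to 58.2, and the WT difference passed under no setting. The eosinophil markers had no read in the Th2 groups or in Th2-Th1 WT cells and at most 1.47 summed normalised counts in Th2-Th1 KO-labelled libraries. Of 4 basophil and mast cell markers, Cpa3 alone was at 290 to 405 in Th2 KO-labelled libraries, the group where Ccr3 was lower, and at 0 to 10.1 in Th2 WT libraries. Ccr1, which lies 49133 bp from Ccr3 in the same cluster, was at 412 to 532 in Th2 WT and 45.0 to 114 in Th2 KO-labelled libraries (-2.59, SE 0.72, adjusted p = 0.00489).

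CXCR6, the receptor for CXCL16 on effector and tissue-resident T cells (chr9:123806477-123811754), had no call between genotypes. Naive libraries had 4.99, 31.5, 0 and 7.56 normalised counts in WT and 2.48, 4.16 and 11.5 in KO-labelled cells. Th2 libraries had 3458, 2446 and 2894 in WT and 2461, 2253 and 2244 in KO-labelled cells. Th2-Th1 libraries had 8569 and 9469 in WT and 5720.3, 3877 and 2297 in KO-labelled cells, so the highest KO-labelled library lay below both WT libraries.

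Cxcr6 rose in Th2 culture by 8.83 (SE 0.70, adjusted p = 1.19e-09) in WT and by 8.58 (SE 0.75, adjusted p = 1.02e-08) in KO-labelled cells, and the interaction passed under no setting. Th2-Th1 WT libraries lay above Th2 WT libraries without overlap, at a ratio of means of 3.08, and this difference of 1.63 (SE 0.84) did not pass (adjusted p = 0.119) but was called under 7 alternatives. The genotype difference in Th2-Th1 cells was -1.28 (SE 0.84, adjusted p = 0.269) and was called by edgeR alone.

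CXCR3, the receptor for the interferon-induced chemokines CXCL9, CXCL10 and CXCL11 and the usual Th1 marker (chrX:101731535-101734147), stayed low in all groups, at no more than 21.2 normalised counts. No read was seen in the 3 Th2 WT libraries, where 3 reads would correspond to a mean of 6.37, while KO-labelled Th2 libraries had 17.1, 14.3 and 9.99. Th2 KO-labelled cells were therefore at least 2.17-fold higher, and the difference passed the test (3.86, SE 0.78, adjusted p = 0.00034), with 36.261 to 44.719 M reads in the KO-labelled libraries and 10.141 to 13.258 M in the WT ones. This floor covers counting error only. Th2-Th1 WT libraries had 1.18 and 15.1 and KO-labelled ones 15.2, 19.0 and 21.2, and the difference of 1.70 (SE 0.88) did not pass (adjusted p = 0.148).

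Cxcr3 had 3.74, 4.11, 9.05 and 6.61 in naive WT and 4.96, 0 and 0 in naive KO-labelled libraries. Across Th2 culture it was called lower in WT (adjusted p = 0.00292) and higher in KO-labelled cells (adjusted p = 0.00303), and the interaction passed (5.71, SE 1.07, adjusted p = 0.000264). The fitted sizes depend on groups with 0 to 4 reads and are not bounds. In Th1 conditions WT was called higher (adjusted p = 0.0199), a call that was lost without the second Th2-Th1 WT library, which held 15.1. Tbx21, which encodes T-bet, the factor known to induce Cxcr3 in Th1 cells, was at 8.49 to 17.9 in Th2 KO-labelled and 0 to 2.02 in Th2 WT libraries, resting on 1 read in the latter (3.25, SE 0.73, adjusted p = 0.000917), and at 1941 to 2485 in Th2-Th1 KO-labelled and 138 to 199 in Th2-Th1 WT libraries (3.70, SE 0.82, adjusted p = 0.0016). NK cells also carry CXCR3, and the summed level of 3 NK cell markers (Eomes, Klrb1c and Ncr1) was 87.4 to 169 in Th2 KO-labelled and 0 to 4.99 in Th2 WT libraries, where Klrb1c and Ncr1 had no read. Most of it was Eomes, a T-box factor that T cells can also make, at 83.9 to 153 in Th2 KO-labelled libraries (5.85, SE 0.67, adjusted p = 4.11e-07), with Klrb1c at 3.50 to 15.5 and Ncr1 at 0 to 1.19. In naive cells the sum was 66.1 to 96.0 in WT and 8.33 to 21.1 in KO-labelled libraries, and in Th2-Th1 cells 2.32 to 5.91 and 14.2 to 42.9. Its part in the Cxcr3 values was not tested.

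CCR7, the lymph node homing receptor (chr11:99144199-99155077), was the receptor whose genotype difference turned between conditions. Naive WT libraries had 4567, 4402, 3643 and 4749 normalised counts, and naive KO-labelled libraries 5025, 4483 and 4491, which overlapped. Th2 libraries had 2459.9, 2585 and 2248 in WT and 704, 908 and 897 in KO-labelled cells. Th2-Th1 libraries had 222 and 230.0 in WT and 1795, 1594 and 1468 in KO-labelled cells. Apart from the naive pair, no neighbouring groups overlapped, and the order ran from naive through Th2 WT, Th2-Th1 KO-labelled and Th2 KO-labelled to Th2-Th1 WT.

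KO-labelled cells were lower in Ccr7 as Th2 cells (-1.55, SE 0.12, adjusted p = 1.98e-09) and higher as Th2-Th1 cells (2.83, SE 0.13, adjusted p = 6.71e-11), a ratio of means of 2.91 one way and 7.16 the other. In WT Ccr7 fell in Th2 culture by 0.83 (SE 0.11, adjusted p = 1.77e-06) and again in Th1 conditions by 3.42 (SE 0.13, adjusted p = 5.3e-13). In KO-labelled cells it fell in Th2 culture by 2.49 (SE 0.12, adjusted p = 1.73e-12) and then rose by 0.96 (SE 0.12, adjusted p = 4.6e-06). Both interactions passed, at -1.66 (SE 0.16, adjusted p = 1.76e-07) for Th2 culture and 4.38 (SE 0.18, adjusted p = 5.02e-12) for the move to Th1 conditions. These Ccr7 calls passed under all 27 alternatives. Dendritic cells also carry CCR7, and the summed level of 4 of their markers was 150 to 225 in Th2 WT and 11.6 to 21.98 in Th2 KO-labelled libraries, and 66.1 to 73.2 in Th2-Th1 WT and 172 to 235 in Th2-Th1 KO-labelled libraries. Siglech had no read in either Th2 group or in Th2-Th1 KO-labelled cells. Xcr1 was low, with a mean of 7.8 over the libraries, and was not called between genotypes. Its differences were -1.38 (SE 1.13, adjusted p = 0.327) in Th2 and -0.55 (SE 1.27, adjusted p = 0.799) in Th2-Th1 cells, where the sum was higher. The other markers in the sum were Flt3 and Zbtb46, whose separate levels are not reported here. The part of these 4 markers in the Ccr7 values was not tested. Klf2, a factor known to drive S1pr1, was at 145 to 171 in KO-labelled and 149 to 257 in WT Th2 libraries, and its genotype differences did not pass in any condition.

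CXCR4, the CXCL12 receptor (chr1:128588199-128592299), had the largest genotype difference of the 8 tested receptors in Th2 cells. Th2 WT libraries had 8170.1, 6816 and 7863 normalised counts and Th2 KO-labelled libraries 431, 416 and 369, a ratio of means of 18.8 (-4.23, SE 0.39, adjusted p = 2.53e-08). In Th2-Th1 cells WT libraries had 387 and 357 and KO-labelled ones 474, 317 and 312, and that difference passed under no setting. Naive libraries were spread widely, at 1226, 3665, 2613 and 719.9 in WT and 1483, 2845 and 1702 in KO-labelled cells, and overlapped.

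Th2 culture raised Cxcr4 in WT by 2.15 (SE 0.37, adjusted p = 3.33e-05) and lowered it in KO-labelled cells by 2.25 (SE 0.39, adjusted p = 6.67e-05). From Th2 to Th2-Th1 cells it then fell in WT by 4.35 (SE 0.44, adjusted p = 1.04e-07), and the difference of -0.17 in KO-labelled cells passed under no setting. Th2 KO-labelled cells, Th2-Th1 WT cells and Th2-Th1 KO-labelled cells thus overlapped at 312 to 474. Both interactions passed, at -4.41 (SE 0.54, adjusted p = 2.25e-06) and 4.18 (SE 0.59, adjusted p = 1.57e-05), and all called Cxcr4 differences passed under all 27 alternatives.

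CXCR5 and CCR6 were low. CXCR5, the follicular receptor (chr9:44511787-44526444), is also carried by B cells. It was at 31.2, 72.6, 25.3 and 58.6 in naive WT and 55.8, 19.4 and 21.8 in naive KO-labelled libraries, and at 0 to 15.1 in all cultured libraries. The fall in Th2 culture passed in WT (-3.41, SE 0.96, adjusted p = 0.00406) and in KO-labelled cells (-3.33, SE 1.03, adjusted p = 0.00977), the latter not without the first Th2 KO-labelled library. The summed level of 5 B cell markers was 205, 111, 277 and 10.4 in the naive WT libraries, in the same order, 25.2 to 178 in naive KO-labelled ones and 0 to 64.9 in cultured ones; their part in the Cxcr5 values was not tested. Ccr6 (chr17:8236041-8258519) had no read in the 3 Th2 WT and 2 Th2-Th1 WT libraries, and at most 5.55 elsewhere, so no comparison was made for it.

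Counted over the 8 tested receptors, the calls between genotypes are set here beside those of all genes. In naive cells 2 of 8 were higher and 0 lower, where 10.9% of all genes were called (7.43% higher and 3.45% lower). In Th2 cells 1 was higher and 3 lower, where 54% were called (29.3% higher and 24.7% lower), with a median difference of -0.41 beside 0.13 over all genes. In Th2-Th1 cells 1 was higher and 0 lower, where 33.7% were called (17.6% higher and 16.1% lower). Scaling with TMM moved the median of all genes in Th2 cells from 0.13 to 0.24, and no receptor call between genotypes changed direction with it.

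**Figure D3:**
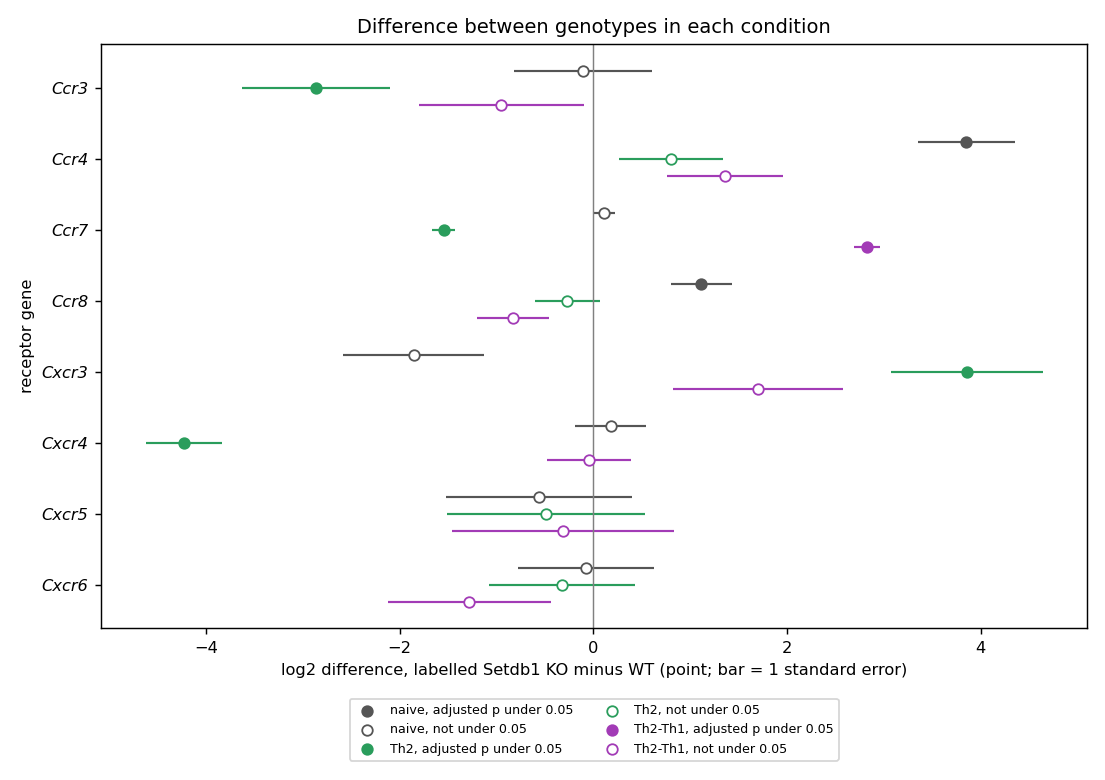
Log2 differences between genotypes (KO-labelled minus WT) with 1 standard error for the 8 tested receptors in naive, Th2 and Th2-Th1 cells, filled where the adjusted p was under 0.05. Cxcr4 lies at -4.23 in Th2 cells and near 0 in the other conditions, Ccr7 lies at -1.55 in Th2 and 2.83 in Th2-Th1 cells, and Ccr4 lies to the right of 0 in all 3 conditions.

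In the move to Th1 conditions 4 of 8 receptors were called in WT, 1 higher and 3 lower, where 49.8% of all genes were called (25.8% higher and 24% lower). In KO-labelled cells 2 were called, both higher, where 26.7% were called (13% higher and 13.6% lower). The interaction called 6 of 8 receptors for Th2 culture, 1 upward and 5 downward, where 41.3% of all genes were called (20.7% upward and 20.6% downward), and 2 of 8, both upward, for the move to Th1 conditions, where 35.5% were called (17.3% upward and 18.2% downward). The comparisons between genotypes, between stages and their interactions share libraries, and so are not independent of each other.

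Of 14 other chemokine receptors listed, 10 were tested, and in Th2 KO-labelled against WT cells 1 was higher and 4 lower, where 54% of all genes were called (29.3% higher and 24.7% lower), with a median of -0.90 beside 0.13 over all genes. Cxcr2, a receptor for neutrophil-attracting chemokines, was at 269 to 399 in Th2 WT and 0.50 to 2.69 in Th2 KO-labelled libraries (-6.97, SE 0.96). In WT Th2 culture 6 were higher and 1 lower, where 65.9% of all genes were called: the inflammatory receptors Ccr1 (7.57, SE 0.67) and Ccr2 (6.92, SE 0.82) rose, and Ccr9, the gut homing receptor, fell (-6.51, SE 0.61). In Th2-Th1 cells Ccr2 was at 6913 to 8329 in WT and 1522 to 2533 in KO-labelled libraries, a difference of -1.98 (SE 0.98) that did not pass.

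Of the 17 ligands of the 9 receptors, 6 were tested, and in Th2-Th1 KO-labelled against WT cells 3 were higher and 0 lower, where 33.7% of all genes were called (17.6% higher and 16.1% lower), with a median of 2.30 beside 0.09 over all genes. These were the 3 CXCR3 ligands: Cxcl11 (49.4 to 61.1 against 0 in both WT libraries), Cxcl9 (49.9 to 73.4 against 0 to 3.54) and Cxcl10 (64.1 to 92.9 against 3.49 to 17.7). Ccl1, the CCR8 ligand, rose in Th1 conditions in WT (7.55, SE 1.00) and in KO-labelled cells (7.14, SE 0.90), reaching 334 to 704 and 639 to 755.

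Of 39 genes of chemokine receptor signalling, 37 were tested, and in Th2 KO-labelled against WT cells 18 were higher and 12 lower, where 54% of all genes were called (29.3% higher and 24.7% lower), with a median of 0.27 beside 0.13 over all genes. The lower ones included regulators that shut off G protein signals, although more genes of the list were higher than lower. Rgs2 was at 2158 to 2340 in Th2 WT and 85.4 to 90.2 in Th2 KO-labelled libraries (-4.66, SE 0.26), and Rgs1, an inhibitor of CXCR4 and CCR7 responses, was at a mean of 38535 and 5506 (-2.81, SE 0.28). Arrb1, which encodes beta-arrestin 1 and serves receptor uptake, was lower by 3.72 (SE 0.13). Between naive cells Rgs1 was higher in KO-labelled libraries (1.24, SE 0.27, adjusted p = 0.00449) and Arrb1 was lower (-0.47, SE 0.12, adjusted p = 0.0172). All 3 had an interaction with Th2 culture, at -4.63 (SE 0.35) for Rgs2, -4.04 (SE 0.39) for Rgs1 and -3.25 (SE 0.18) for Arrb1. Over the 37 genes this interaction was called upward for 13 and downward for 10, where 20.7% and 20.6% of all genes were called. Its median was 0.18 beside 0.10 over all genes.

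Of 18 other homing receptors, 17 were tested, and in Th2 KO-labelled against WT cells 5 were higher and 8 lower, where 54% of all genes were called (29.3% higher and 24.7% lower), with a median of -0.11 beside 0.13. S1pr1, the receptor for exit from lymphoid tissue, was at 4862 to 5271 in Th2 WT and 492 to 568 in Th2 KO-labelled libraries (-3.24, SE 0.12). Gpr15, a gut homing receptor, was at 151 to 313 in Th2-Th1 KO-labelled and 3.49 to 9.45 in Th2-Th1 WT libraries (4.92, SE 0.79). All 18 lineage and homing regulators were tested, of which 4 were higher and 7 lower in Th2 KO-labelled cells, near the same 54%, with a median of -0.42. Gata3, the Th2 factor, did not differ by the test in Th2 cells (1883 to 2467 against 2004 to 2303 in WT) and was lower in Th2-Th1 KO-labelled cells (-1.28, SE 0.23). Bcl6, the follicular helper factor, was lower in Th2 KO-labelled cells (-1.60, SE 0.37).

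The genes whose pattern over the 18 libraries was most like each receptor were named by Pearson correlation of log values among tested genes with a mean of at least 50. This is a description, since all points share 6 groups and their depths. For Ccr4 they were Hist1h2ae (r = 0.988), Hist1h3h (r = 0.985) and Cdca3 (r = 0.985), histone and cell division genes. For Ccr8 they were Xbp1 (r = 0.984), Hist1h2ak (r = 0.981) and S100a6 (r = 0.980), and for Cxcr6 Tnfsf14 (r = 0.981), Pdia6 (r = 0.976) and Ybx3 (r = 0.975). For Ccr7 they were Vps37b (r = 0.982), Zbtb25 (r = 0.956) and Leprotl1 (r = 0.955). For Cxcr4 they were Atg12 (r = 0.949), Eif1b (r = 0.946) and Map3k1 (r = 0.944). Those of Ccr3 were Obsl1 (r = 0.962), Pik3ap1 (r = 0.948) and Srgap3 (r = 0.948), and the low receptors Cxcr3 (Nubp2, r = 0.894) and Cxcr5 (Pdcd10, r = 0.904) had weaker best matches.

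Chromatin was deposited as 1 peak list per condition, so no list has a replicate and none of the following was tested. H3K9me3 regions lay within 50 kb of 8 of the 9 receptors in Th2 WT cells, all but Cxcr3, where 56.7% of tested genes had one. Within 10 kb they lay near 7 of 9, against 28.9% of genes. In the Th2 KO-labelled list 1 of 9 receptors had a region, against 5.0% of genes, and in naive cells 5 of 9 in WT (55.2% of genes) and 0 of 9 in KO-labelled cells (6.5%). The KO-labelled lists were short as a whole, 1708 regions in Th2 and 1163 in naive cells beside 12233 and 9659 in WT.

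Of the 29 Th2 WT regions near receptors, 1 overlapped a region of the KO-labelled list, 3.4% beside 4.4% of the whole WT list. It covers the downstream part of the Ccr4 gene span, at chr9:114489251-114495550 in WT and chr9:114489401-114494350 in KO-labelled cells. It thus takes in the end of the gene but not the promoter shown above. The start of that promoter lies inside the span, and both regions cover most of the gene from that start to its end. All 29 overlapped the Suv39h1-/- list, beside 95.9% of the whole WT list; that list is longer (43404 regions) and placed 64 regions near the receptors. Cxcr4 carried 5 regions in Th2 WT, 1 of them inside the gene at chr1:128588901-128589450, and none in the KO-labelled list. Th2 WT regions lay near receptors with a genotype call in Th2 cells (Ccr3 with 4, Ccr7 with 3, Cxcr4 with 5 and Cxcr3 with 0) and near those without one (Ccr4 with 5, Ccr8 with 4, Cxcr5 and Cxcr6 with 3 each), and near the untested Ccr6 with 2.

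**Figure D4:**
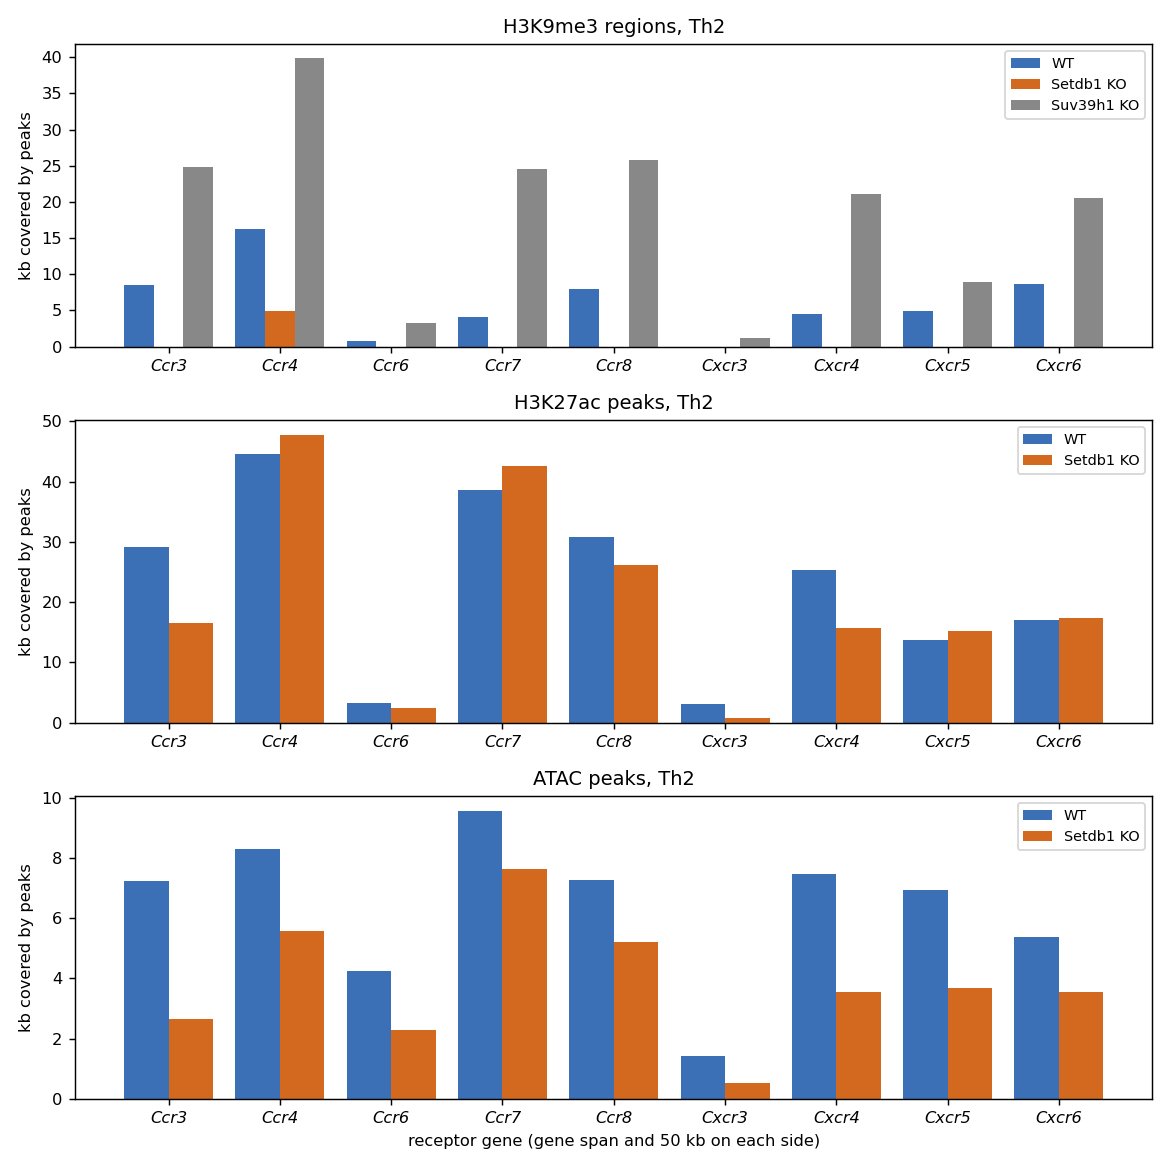
Kilobases covered by peaks within each receptor gene and 50 kb on each side in Th2 cells: H3K9me3 (top; WT, Setdb1 KO-labelled and Suv39h1 KO), H3K27ac (middle) and ATAC (bottom), 1 list per bar. H3K9me3 is seen in the KO-labelled list at Ccr4 alone (4950 bp). The covered length is lower in KO-labelled cells in all 3 panels for Cxcr4, Ccr3, Ccr6 and Ccr8. In the ATAC panel it is lower for every receptor.

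H3K27ac, a mark of active promoters and enhancers, gave 78 peaks near the receptors in Th2 WT and 111 in KO-labelled cells. The KO-labelled list was longer overall (40734 against 31236 peaks). Of the 78, 56 (71.8%, beside 77.9% of the whole WT list) were shared. Cxcr4 had 17 in WT, 9 of them not shared, and 10 in KO-labelled cells, covering 25398 and 15626 bp. Its promoter lay within an H3K27ac peak in both, chr1:128589735-128593483 in WT and chr1:128590540-128593251 in KO-labelled cells. Ccr4 had 6 in WT, all shared, and 16 in KO-labelled cells, covering 44526 and 47809 bp, with its promoter inside a peak in both. Ccr3 had 2 peaks over the gene in WT, of 1324 and 1653 bp, and 1 of 119 bp in KO-labelled cells, and the covered length in its window was 29160 and 16606 bp.

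Accessible chromatin (ATAC) gave 160 peaks near the receptors in Th2 WT and 110 in KO-labelled cells, and 96 of the 160 (60.0%, beside 56.6% of the whole list) were shared; the KO-labelled list was shorter overall (58523 against 92129 peaks). Cxcr4 had 21 in WT and 9 in KO-labelled cells and Ccr3 21 and 12, while Ccr7 had 23 in both and Ccr4 24 and 20. The promoter stretches of Cxcr4 and Ccr4 shown above lay inside an ATAC peak over all 250 bases in both genotypes. For Ccr8 the peak covered 250 bases in WT and 226 in KO-labelled cells, and for Cxcr6 171 and 161. No ATAC peak touched the Ccr3 stretch in either list, although peaks lay over the gene (3 in WT and 2 in KO-labelled cells).

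**Figure D5:**
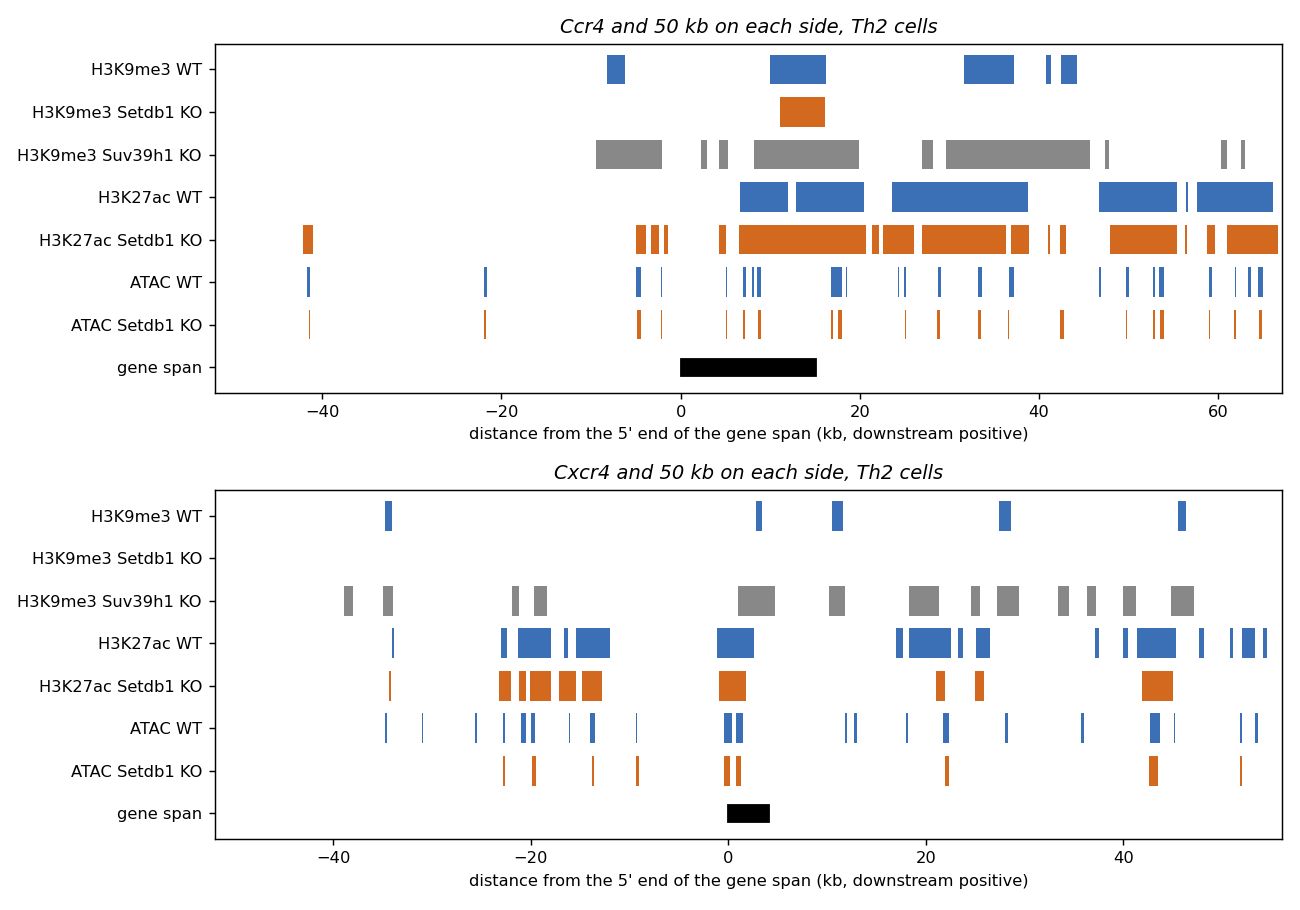
Peaks around Ccr4 (top) and Cxcr4 (bottom) in Th2 cells by distance from the 5′ end of the gene span in kb, 1 row per peak list (H3K9me3, H3K27ac and ATAC), WT in blue, Setdb1 KO-labelled in orange and Suv39h1 KO in grey. The single H3K9me3 region left in the KO-labelled list lies over the downstream part of the Ccr4 gene span, and around Cxcr4 the KO-labelled list holds 9 ATAC peaks against 21 in WT.

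H3K4me1, a mark of enhancers, gave 66 peaks near the receptors in naive WT and 106 in Th2 WT cells. The whole lists held 41665 and 62477 peaks. Of the 66, 59 (89.4%, beside 78.5% of the whole naive list) were still covered in Th2 cells. Ccr3 went from 5 to 18, Ccr6 from 2 to 9 and Cxcr4 from 8 to 14, while Ccr4 (12 and 13), Ccr7 (12 and 13) and Cxcr5 (12 and 13) had nearly equal numbers. In the second H3K4me1 experiment, Th2 WT cells had 128 peaks and KO-labelled cells 154, from whole lists of 76271 and 97052. Of the 128, 110 (85.9%, beside 79.0% of the whole WT list) were shared. Cxcr4 had 21 and 22 peaks, covering 46785 and 30835 bp.

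Promoter windows from 250 bases before to 50 after the start were at hand for 7 of the 9 receptors, the exceptions being Ccr7 and Cxcr5. Both strands were searched. The GATA letters were in the windows of 3 of 7 (Ccr3, Ccr6 and Ccr8), against 29.8% of all 32851 windows. T-box letters (TCACACC or CTCACAC) were in 0 of 7 (7.6% of windows), and KLF letters (GGGTGTGG or GGGCGTGG) in 0 of 7 (8.6%). The STAT motif was in 1 of 7, Ccr6, against 14.6%. The NF-kB motif was in 1 of 7, Ccr3, against 0.2%, and E-box letters (CANNTG) in 6 of 7, all but Cxcr4, against 72.3%. A match is a string of letters and not a bound site.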

How the data were processed

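The deposited data were an RNA table and 13 lists of peaks; the submitters' processing notes name cutadapt 1.3, TopHat2 2.0.5, BWA 0.7.10, DESeq, MACS2 2.1.0 and mm10. The signal values of the RNA table, deposited by the authors, are normalised read counts: by their steps, each library's reads had been divided by its own size factor. Whole reads were recovered from 100% of values within 0.01. The file held 2 identical copies of each gene, and the first was used. The sources used here do not state whether counting used strand, so reads of overlapping genes cannot be told apart. Peak lists hold the authors' score, ratio (fold enrichment) and -log10 p values, deposited per peak; 8 are in the MACS2 layout, and the caller of the 5 H3K9me3 lists was not stated. The score was used only to keep peaks at or above a list's median as an alternative; ratio and -log10 values, deposited by the authors, were not used.

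limma 3.58.1 (trend) was fitted to log2(value + 1) of genes that reached a value of 10 in 2 or more of 18 libraries (17254 genes), with 1 coefficient per group, 12 residual degrees of freedom and Benjamini-Hochberg adjustment at 0.05. It was tested on simulated data first. All 18 libraries entered 1 fit, so each gene had 1 spread for every comparison, including groups that were not compared. Alternatives included edgeR 4.0.16, DESeq2 1.42.0 and leaving out each library. Peaks were assigned to genes placed by RefSeq GRCm38.p6 (93.8% of tested genes) within 50 kb, and counted as shared at 1 bp of overlap. Replicate libraries differed beyond counting noise (chi-square per degree of freedom at least 7.83 over 19 pairs), so none was counted as a copy. The rule named all 9 receptors, the 3 genes most alike for each, and up to 4 called genes per list and comparison with the largest change; the text gives a selection picked with values known, and Foxp3, Gata3, Klf2, Bcl6 and Tbx21 were named in any case, while some listed genes are not reported here. Cpa3 is a listed marker, and Ccr1 is also shown as a neighbour. The members and lists were chosen with earlier results of these data known.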

Additional observations from a re-analysis of the deposited data

Results flagged for a closer look

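The fourth naive WT library held 11.3 normalised counts of Ccr4, far above the other 3 naive WT libraries (0 to 1.81); chance sets apart about 1 in 20 such groups. All 3 naive KO-labelled libraries were above it.

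The change in Th2 culture differed between genotypes for 6 of 8 receptors by the interaction in limma, where 41.3% of all genes were called. It was more negative in KO-labelled cells by -2.76 for Ccr3, -3.05 for Ccr4, -1.66 for Ccr7, -1.38 for Ccr8 and -4.41 for Cxcr4, and more positive by 5.71 for Cxcr3. For Ccr4 and Ccr8 both genotypes rose, for Ccr7 both fell, and for Cxcr4 they moved in opposite directions. The Th2 culture call was kept under 13 of 27 alternatives for Ccr3 and under 23 of 27 for Ccr8. The change in Th1 conditions differed for 2 of 8 receptors, where 35.5% of all genes were called. It differed by 4.38 for Ccr7 and 4.18 for Cxcr4, both of which fell in WT.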

How the results depend on the processing

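Of 1295 receptor differences computed under 27 alternatives per comparison, 1219 kept their direction and side of the threshold, 30 lost a call, 46 gained one and 0 reversed. Leaving out a library of a group that was not compared cannot change the fitted difference, only its p. Those settings could not reverse a direction, and a call kept there does not test the compared libraries. The other 24 receptor and comparison pairs were called under no setting, and 11 of these changed sign. The number of naive receptors called between genotypes was 2, but 1 without the filter on low values, 0 when only the naive groups were fitted, 1 without 3 naive libraries that stood apart, and 1 to 3 with 1 library left out (1 without the first WT or the second KO-labelled naive library, 3 without the first KO-labelled one). In Th2-Th1 cells it was 1, but 2 with a pseudocount of 5, with only the groups compared and without those 3 naive libraries, 4 with edgeR, 3 with DESeq2, and 1 to 2 with 1 library left out. For the move to Th1 conditions it was 4 in WT, and 2 to 5 with 1 library left out (2 without the second Th2-Th1 WT library); in KO-labelled cells it was 2, but 4 with a pseudocount of 5, with edgeR and with DESeq2. With the replicate number as a block the Th2-Th1 count between genotypes was 2. Deviations of same-numbered libraries had correlations of -0.08 to 0.13, except between the genotypes in naive cells. There they were 0.01, -0.41 and -0.40 for numbers 1, 2 and 3, so naive libraries 2 and 3 deviated in opposite directions. With 2 to 4 libraries per group, these correlations cannot show whether the numbers pair the samples. H3K9me3 regions in naive WT cells lay near 5 receptors within 50 kb, 2 within 10 kb and 3 for regions at or above the median score. The low receptors Cxcr3, Cxcr5 and Ccr3 are limited by depth.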
